A study of Mus musculus with 2 samples.

Results

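The cells described here are T cells in which no CD8 transcript was captured, taken from mouse kidney tumours profiled by droplet single-cell RNA sequencing. A barcode was counted as such a cell when it held at least 500 unique molecular identifiers (UMIs, each standing for a captured RNA molecule), at least 200 genes and at most 20% mitochondrial UMIs. It also had to hold at least 2 UMIs summed over the CD3 genes Cd3d, Cd3e and Cd3g, no UMI of Cd8a, Cd8b1, Ncr1 or Csf1r, and at most 10 UMIs of the complement genes C1qa, C1qb and C1qc. The rule found 143 barcodes among 18189 that passed the limits on UMIs, genes and mitochondrial share. Of these, 55 came from the SMYD3 knockdown library and 88 from the WT library. CD3 and CD8 counts therefore chose the cells and are given only as a description.

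Both libraries came from RENCA tumours, a kidney cancer line of BALB/c mice, engrafted orthotopically in BALB/c mice. The tumours of the first library carried a knockdown of SMYD3, a lysine methyltransferase, and those of the second are labelled WT and described as the control. The design text describes sorted CD45+ immune cells, whereas the sample labels give the cell type as epithelial. The number of animals behind each library, their age and sex, any pooling and the knockdown construct are not given in the sources used here.

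CD3 chains form the signalling part of the T cell receptor and are shared by all T cells. CD4 marks helper T cells, which recognise peptide on MHC class II, and the transcription factor Foxp3 marks regulatory T cells, which restrain other lymphocytes. Trdc encodes the constant region of the delta chain, carried by gamma-delta T cells, many of which release interleukin 17 in tissues. Icos is a costimulatory receptor of activated helper and regulatory cells.

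Each label had 1 library, so no difference between knockdown and WT could be tested against replicates. Intervals below are 95% intervals and cover counting error only. Shares of cells carry exact Clopper-Pearson intervals, differences of shares Newcombe intervals, and ratios of summed levels exact conditional binomial intervals. The libraries held 10186 and 9265 barcodes with 95803321 and 91523767 UMIs, knockdown and WT in that order here and below. They shared 22 barcode sequences, none of them among the T cells described. The T cells without CD8 transcripts were shallow, with a median of 2180 UMIs in the knockdown library (1234 to 9031) and 2311 in the WT library (964 to 15957). Summed over cells they gave 147491 and 272740 UMIs.

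Barcodes chosen by the rule were 0.579% of the kept knockdown barcodes (0.436 to 0.752) and 1.01% of the kept WT barcodes (0.814 to 1.25). The difference was -0.435 percentage points (-0.704 to -0.178). CD8-positive T cells, which passed the same rule but held at least 1 Cd8a or Cd8b1 UMI, numbered 44 and 38, or 0.463% and 0.438% of kept barcodes, a difference of 0.0251 points (-0.176 to 0.223). The CD8-negative share of all gated T cells was thus 55.6% of 99 in the knockdown library and 69.8% of 126 in the WT library, a difference of -14.3 points (-26.5 to -1.61). CD8-positive cells were deeper, with medians of 3396 and 3436 UMIs, and an absent CD8 UMI in a shallow cell does not show that the cell lacks CD8. Thinning each barcode at random to 1000 UMIs before applying the rule, in 20 draws, gave median shares of 62.6% (55.3 to 70.1 over draws) and 77.5% (73.4 to 82.3). The difference lay between -25.6 and -8.28 points over draws, and its counting interval in a single draw crossed 0 (-11.3, -24.8 to 2.36). Thinned values below are medians over the same 20 draws with their range, and leave out 2 WT cells and 1 CD8-positive T cell of each library that were shallower.

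The label was checked with T cell receptor constant genes, the markers Cd4, Foxp3, Icos and Trdc, and genes of other blood cells. Cd3e, the other marker, is part of the rule. The check went against the label for 10 of 55 knockdown barcodes and 6 of 88 WT barcodes, which held 50 or more UMIs of S100a8 and S100a9, the calprotectin genes of neutrophils, with medians of 206.5 (81 to 334) and 279.5 (91 to 445). Among the other barcodes the highest count was 6 in the knockdown library and 35 in the WT library, and 36 of 45 and 74 of 82 had none. The CD3 UMIs of the neutrophil-transcript barcodes were all from Cd3d, 22 and 12 in total. They had no UMI of Cd3e, Cd3g, the T cell receptor constant genes Trac, Trbc1, Trbc2 and Trdc, Cd4 or Foxp3.

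Cd3d was also looked for in all barcodes of neutrophil type (Csf3r, at least 20 S100a8 and S100a9 UMIs, no Csf1r UMI, at most 10 C1q UMIs). That set did not leave out the barcodes above, so it is not separate from them. At least 1 Cd3d UMI was present in 47 of 923 knockdown barcodes (5.09%) and in 24 of 471 WT barcodes (5.10%) of that type, against 0 and 2 with Cd3e. For their lack of Cd3e, Cd3g and T cell receptor constant UMIs, the barcodes with neutrophil transcripts are not called T cells in what follows. They made up 18.2% (9.08 to 30.9) of the knockdown cells and 6.82% (2.54 to 14.3) of the WT cells chosen by the rule, a difference of 11.4 points (0.559 to 24.1). Shares over 55 and 88 barcodes include them. The 45 knockdown and 82 WT barcodes without them are called the remaining cells, and their values are given beside the main shares and counts.

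**Figure D1:**
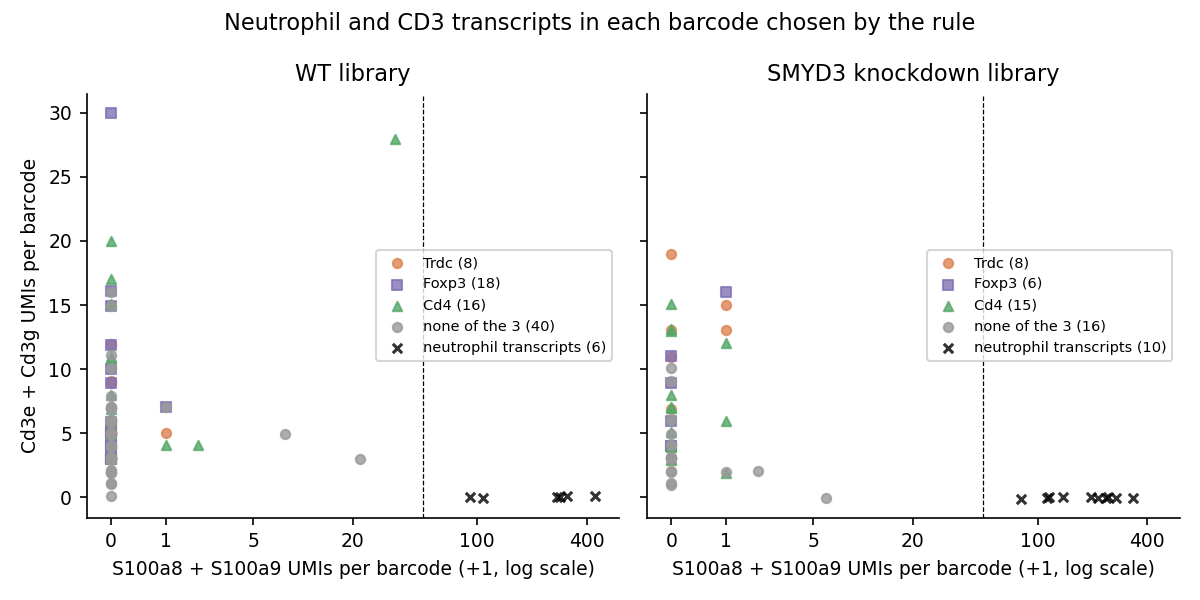
Each point is a barcode chosen by the rule, placed by its S100a8 and S100a9 UMIs (horizontal, log scale) and its Cd3e and Cd3g UMIs (vertical), in the WT library (left) and the knockdown library (right). Barcodes right of the dashed line at 50 UMIs, 6 in WT and 10 in the knockdown, had no Cd3e or Cd3g UMI.

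The remaining cells held T cell receptor transcripts. An alpha or beta chain constant gene, which the rule did not use, was seen in 40 of 45 (88.9%) and 75 of 82 (91.5%). Cd3e, on chromosome 9 (44998740 to 45009627, minus strand, mm10), had a UMI in 41 of 45 knockdown cells (91.1%) and 76 of 82 WT cells (92.7%). That share follows in part from the rule. B cell and mast cell markers were at 0 in both libraries. Of 10 natural killer cell markers, 6 had a UMI in the knockdown library (73 UMIs in 26 of 45 cells) and 4 in WT (83 UMIs in 41 of 82), against 212 UMIs in 36 of 44 and 407 in 34 of 38 CD8-positive T cells. Klrb1c, which encodes NK1.1, had 2 UMIs in each library and none in CD8-positive T cells, and Eomes, a transcription factor of natural killer and CD8 T cells, had 9 UMIs in 1 knockdown cell. Ncr1 (by the rule), Klra8, Klra4 and Gzma were at 0. Transcripts of the macrophage marker list were present at a median of 9 and 8.5 UMIs per cell, against 8 and 11 in CD8-positive T cells. Without the neutrophil-type barcodes, the share of kept barcodes was 0.473% and 0.944% (difference -0.471, -0.727 to -0.229) and the share of gated T cells 50.6% and 68.3% (difference -17.8, -30.5 to -4.35).

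Near the rule's edges, 12 knockdown and 11 WT barcodes held exactly 2 CD3 UMIs, and 8 and 6 of those carried neutrophil transcripts. Just outside, 70 and 46 barcodes held exactly 1 CD3 UMI and met every other limit, and 48 and 17 of them carried neutrophil transcripts. Exactly 1 CD8 UMI kept 3 and 5 gated T cells out. The highest C1q count in any chosen barcode was 7 in each library.

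The remaining cells were split without overlap into those with Trdc, then those with Foxp3, then those with Cd4, and those with none of these 3 genes. Trdc cells numbered 8 in each library, Foxp3 cells 6 and 18, Cd4 cells 15 and 16, and cells with none of them 16 and 40. No cell held Trdc together with Cd4 or Foxp3. Of the Foxp3 cells, 4 of 6 and 6 of 18 also held Cd4.

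**Figure D2:**
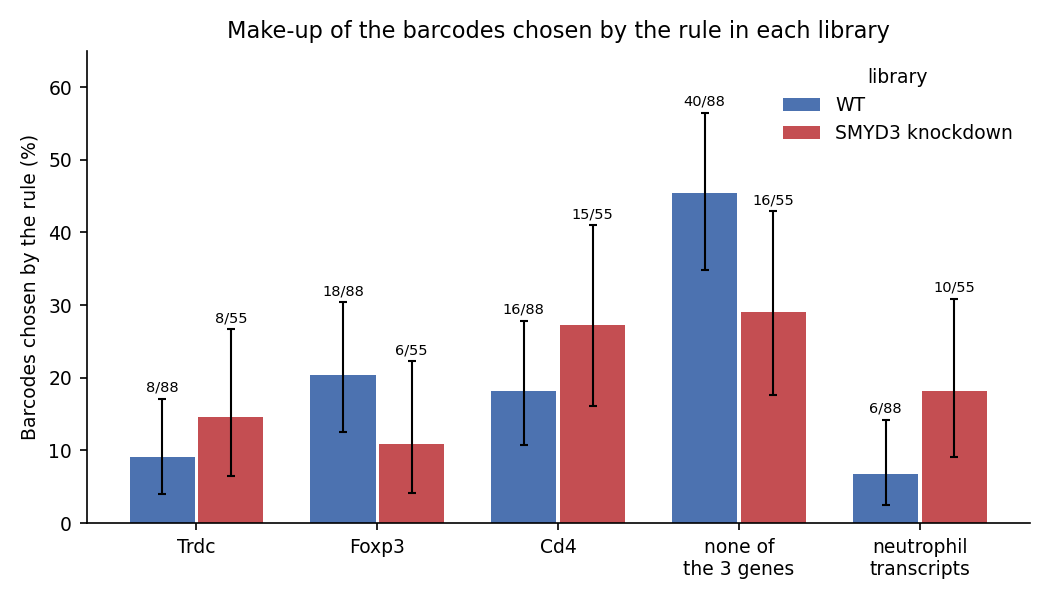
Bars give the share of the barcodes chosen by the rule in each class, those with neutrophil transcripts included, in percent, for the WT library (blue) and the knockdown library (red); lines are exact 95% intervals and the fractions are cells over all chosen barcodes of that library. Foxp3 cells were 6 of 55 in the knockdown and 18 of 88 in WT, with overlapping intervals.

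Cd4 (chromosome 6, 124864692 to 124888221, minus strand) had a UMI in 19 of 55 knockdown cells (34.5%, 22.2 to 48.6) and 22 of 88 WT cells (25.0%, 16.4 to 35.4). The difference of 9.55 points had an interval of -5.43 to 24.9. In the remaining cells the shares were 42.2% and 26.8%, a difference of 15.4 points (-1.50 to 32.1). In the much deeper macrophage barcodes, with median UMIs of 13935 and 12458, the shares were 2.23% and 3.98%. In neutrophil barcodes, with medians of 1510 and 1465, they were 0.114% and 0 of 447. CD8-positive T cells gave 1 of 44 and 0 of 38. Thinned, the Cd4 shares were 18.2% (9.09 to 29.1) and 11.6% (6.98 to 15.1).

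Foxp3 (chromosome X, 7573644 to 7595245, plus strand) had a UMI in 10.9% of knockdown cells (4.11 to 22.2) and 20.5% of WT cells (12.6 to 30.4), a difference of -9.55 points (-20.7 to 3.48). In the remaining cells they were 13.3% and 22.0% (difference -8.62, -21.0 to 6.30). Thinned shares were 5.45% (1.82 to 7.27) and 11.0% (5.81 to 15.1). The macrophage shares were 0.0513% and 0.0771%, and no CD8-positive T cell had a UMI. By the exact intervals that allows up to 8.04% and 9.25% of such cells with a UMI, and it says nothing of cells expressing the gene. Among cells with Cd4 or Foxp3, those with Foxp3 were 6 of 21 (28.6%, 11.3 to 52.2) and 18 of 34 (52.9%, 35.1 to 70.2), a difference of -24.4 points (-45.8 to 2.46). Per kept barcode, the Foxp3 class was 0.0631% and 0.207%, a difference of -0.144 points (-0.269 to -0.0377). That last interval stayed below 0, whereas those over the chosen T cells crossed it. With 2 UMIs of Foxp3 required, the shares were 9.09% and 11.4%.

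Trdc (chromosome 14, 54142851 to 54148868, plus strand) had a UMI in 14.5% (6.5 to 26.7) and 9.09% (4.01 to 17.1) of the cells, a difference of 5.45 points (-5.04 to 17.9). In the remaining cells they were 17.8% and 9.76% (difference 8.02, -3.87 to 22.4). Thinned shares were 10.9% (7.27 to 14.5) and 6.98% (5.81 to 9.30). A single macrophage barcode in each library held it (0.0256% and 0.0257%), and no CD8-positive T cell did. Per kept barcode the Trdc class was 0.0841% and 0.0921%. Icos (chromosome 1, 60977927 to 61000320, plus strand) had a UMI in 32.7% and 45.5% of cells, a difference of -12.7 points (-27.8 to 3.81), against 20.5% and 31.6% of CD8-positive T cells and 0.436% and 0.437% of macrophage barcodes. In the remaining cells they were 40.0% and 48.8% (difference -8.78, -25.6 to 9.17). Thinned shares of Icos were 20.0% (16.4 to 29.1) and 27.3% (22.1 to 31.4).

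Cells with none of the 3 genes were the class that differed most per kept barcode, 0.168% and 0.461%, a difference of -0.292 points (-0.471 to -0.131). The Cd4 class was 0.158% and 0.184% (difference -0.0265, -0.157 to 0.0980).

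The remaining cells were compared with CD8-positive T cells of the same library, with UMIs summed over cells and expressed as CPM, which scales each gene to all UMIs of the same cells. A gene was counted when log2(CPM + 10) differed by at least 1, that is 2-fold, in the same direction in both libraries. The fold is on that scale, which understates changes of low genes. Of 2578 genes with enough UMIs, 40 (1.55%) were higher and 35 (1.36%) lower in the cells without CD8 transcripts. With the neutrophil-type barcodes kept in, 75 (2.78%) of 2693 were higher and 37 (1.37%) lower, and the higher list was then led by neutrophil genes such as Retnlg, S100a8 and G0s2. The classes were cut on CD3 and CD8 counts of the same cells, so these values describe them and are no test.

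Genes of helper and regulatory T cells were higher. Of 6 CD4-lineage genes measured, 5 were past 2-fold higher in both libraries, with list medians of 2.04 and 1.96 (log2) against 0.01 and 0.03 over all genes. The list includes Cd4 itself, which had 33 UMIs against 1 in the knockdown library and 57 against 0 in WT. Tnfrsf4, the costimulatory receptor OX40, was 9.70-fold higher in the knockdown library (39 against 5 UMIs) and at least 11.3-fold higher in WT (48 against 0). Icos stood at 370 against 61.9 CPM in the knockdown library (5.97-fold, 2.98 to 13.2) and at 413 against 93.0 CPM in WT (4.44-fold, 2.65 to 7.90). Tnfsf8, the CD30 ligand, was 3.73-fold and 4.33-fold higher.

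Of 9 regulatory T cell genes measured, 8 were higher in both libraries and 6 past 2-fold, with medians of 1.21 and 2.32. Ikzf2, which encodes the transcription factor Helios, had 106 against 14 UMIs in the knockdown library (9.42-fold, 5.37 to 17.8) and 231 against 7 in WT (23.3-fold, 11.1 to 58.5). Il2ra, the interleukin 2 receptor alpha chain, was 9.02-fold (3.17 to 35.3) and 4.58-fold (1.93 to 13.2) higher. Ikzf2 was seen in 17 of 45 and 36 of 82 cells, so it was not a feature of every cell.

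Il7r, the interleukin 7 receptor that memory and innate-like T cells carry, was also higher. It had 1455 against 285 CPM in the knockdown library (5.11-fold, 3.68 to 7.21) and 1285 against 279 in WT (4.60-fold, 3.42 to 6.31). A UMI was present in 38 of 45 and 71 of 82 cells, against 14 of 44 and 13 of 38 CD8-positive cells. After thinning, the Il7r shares of all cells chosen by the rule were 50.9% (43.6 to 58.2) and 64.5% (57.0 to 68.6), against 18.6% (6.98 to 23.3) and 21.6% (13.5 to 27.0) of CD8-positive cells. Unthinned, they were 69.1% and 80.7%, and 31.8% and 34.2% of CD8-positive cells. Among the other genes, Hif1a, the hypoxia-inducible transcription factor, was 3.42-fold and 3.43-fold higher, and Maf, a transcription factor of helper and gamma-delta T cells, 7.88-fold and 12.3-fold. Maf also stood at 1085 and 1199 CPM in macrophage barcodes, above its 732 and 606 CPM here. Mmp12, a macrophage metalloprotease, was on the list through single cells, which held 16 of its 19 UMIs in the knockdown library and 44 of 51 in WT.

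Cytotoxic genes were lower throughout the list. All 10 measured cytotoxic effector genes were lower in both libraries and 9 were past 2-fold, with medians of -2.55 and -2.33. Ccl5, a chemokine of effector T cells, had 755 against 5270 CPM in the knockdown library (ratio 0.143, 0.115 to 0.177) and 625 against 4717 in WT (0.133, 0.111 to 0.157). It was seen in 12 of 45 and 30 of 82 cells, against 39 of 44 and 34 of 38 CD8-positive cells and 1.77% and 2.21% of macrophage barcodes. Nkg7, a protein of cytotoxic granules, had ratios of 0.208 and 0.206, and Gzmb, the protease granzyme B, 0.0342 (0.0124 to 0.0757) and 0.129 (0.0844 to 0.191). Gzma, granzyme A, had no UMI in the cells without CD8 transcripts, against 47 in 7 cells and 254 in 9 cells, at least 12.6-fold and 120-fold lower. Gzmk, granzyme K, had ratios of 0.117 and 0.0798.

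Among the 15 lowest genes were others that encode surface proteins. The ratios were 0.0259 and 0.0691 for Ly6c2, 0.124 and 0.0742 for Cd160, 0.133 and 0.160 for Klrc1, and 0.166 and 0.201 for the collagen-binding integrin chain Itga1. Type 1 effector genes, a list that shares Ccl5 and Nkg7 with the cytotoxic one, were lower in both libraries for 7 of 10 measured and past 2-fold for 3, with medians of -0.74 and -1.01. T cell receptor complex genes did not separate the classes: 6 of 14 were higher in both libraries and 6 lower, none past 2-fold. Of 19 genes of the dissociation and heat stress list, 12 were higher in both libraries and 1 past 2-fold, with medians of 0.55 and 0.36. Its part in the differences was not tested.

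**Figure D3:**
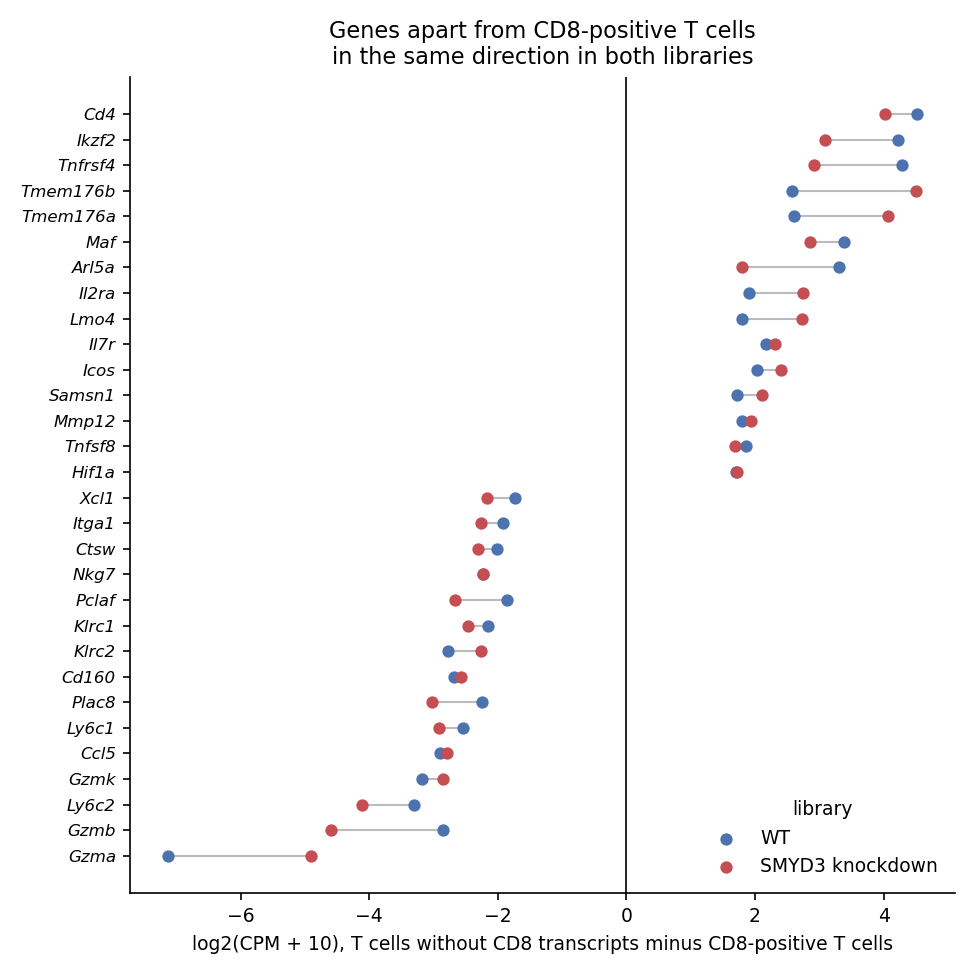
Points give the difference in log2(CPM + 10) between the remaining cells without CD8 transcripts and CD8-positive T cells, for the WT library (blue) and the knockdown library (red), 1 gene a line. The 15 genes highest and 15 lowest by the smaller of the 2 libraries' differences are drawn, so every pair lies on the same side of 0.

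Gamma chain genes and Il17a were seen in part of the Trdc cells. Trdc UMIs per cell were 1, 1, 2, 5, 6, 8, 10 and 20 in the knockdown library and 1, 1, 2, 3, 5, 7, 9 and 12 in WT. Gamma chain constant gene Trgc1 was seen in 6 of 8 cells of each library, with 26 and 9 UMIs. Trgc2 was seen in 1 and 2 cells, and Trdv4, the variable segment that often pairs with the gamma segment Trgv6, in 2 and 2. Alpha chain Trac was nearly absent, with 2 and 0 UMIs, whereas Trbc2 was seen in 6 and 5 of the 8 cells, with 18 and 14 UMIs. The counting does not tell a rearranged receptor from unrearranged transcripts.

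Against the other remaining cells, 48 of 2407 genes (1.99%) were 2-fold or more higher in the Trdc class in both libraries and 204 (8.48%) lower. With the neutrophil-type barcodes among the others, 2.12% were higher and 10.3% lower. Scart1, a scavenger receptor known from gamma-delta T cells, had 24 UMIs in 6 of 8 cells and 12 UMIs in 4 of 8, against 0 in the other cells, at least 32.7-fold and 59.9-fold higher. Il17a, the cytokine interleukin 17A, had 24 UMIs in 6 of 8 knockdown cells and 9 UMIs in 2 of 8 WT cells, against 0 and 1. In WT, 8 of the 9 UMIs lay in a single cell. Il17a was at 0 in all CD8-positive, macrophage and neutrophil barcodes.

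Blk, a Src-family kinase, and Sox13, a transcription factor, both known from this lineage, had 8 and 4 UMIs and 6 and 5 UMIs in the Trdc class and none in any other T cell class. Tmem176a was 13.3-fold (5.84 to 33.9) and 15.8-fold (7.98 to 31.2) higher, and its neighbour Tmem176b 12.3-fold and 9.76-fold. Both encode membrane proteins and were also present in macrophage barcodes, Tmem176a at 78.9 and 65.1 CPM. Ccr2, a receptor for inflammatory chemokines, was 3.14-fold and 3.63-fold higher. The T cell inhibitory surface proteins Cd5 and Cd6 had no UMI in this class, against 25 and 60 UMIs of Cd5 and 24 and 57 of Cd6 in the other cells. With so few cells, the bounds are small, at least 2.04-fold and 1.34-fold lower for Cd5. The phosphatase gene Inpp4b was also at 0, at least 3.75-fold and 1.96-fold lower.

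Genes known from regulatory T cells led the Foxp3 class. Against the other remaining cells, 48 of 2407 genes (1.99%) were higher in both libraries and 105 (4.36%) lower, or 2.23% and 6.12% with the neutrophil-type barcodes among the others. Ctla4, the inhibitory receptor, had a UMI in 6 of 6 and 17 of 18 cells, at 1741 against 218 CPM (8.01-fold, 4.71 to 13.9) and 1805 against 505 CPM (3.58-fold, 2.71 to 4.72). Ikzf2 was seen in 6 of 6 and 17 of 18 cells, 6.68-fold (4.46 to 10.1) and 4.83-fold (3.68 to 6.39) higher. Ikzf4, the related factor Eos, was 8.77-fold and 5.73-fold higher.

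Among the regulatory genes were 3 receptors of the tumour necrosis factor family, named after their values were seen. Tnfrsf9, or 4-1BB, was 19.0-fold (5.22 to 104) and 10.9-fold (5.54 to 23.6) higher, Tnfrsf4 5.11-fold and 4.78-fold, and Tnfrsf18, or GITR, 3.80-fold and 5.13-fold. In a single draw of thinning, the smaller of the Tnfrsf9 differences was -0.021 on the log2 scale. Il1rl1, the receptor ST2 for the alarmin interleukin 33, had 16 against 1 UMI in the knockdown library (70.1-fold, 10.9 to 2942) and 23 against 2 in WT (33.0-fold, 8.14 to 288). It was present in 3 of 6 and 9 of 18 Foxp3 cells. Izumo1r, folate receptor 4, was 11.7-fold and 3.73-fold higher. Ctla4 and Ikzf2 thus marked nearly every Foxp3 cell, whereas Il1rl1 was seen in part of them.

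Some genes had no UMI in any Foxp3 cell. Tcf7, the memory transcription factor TCF1, had 18 and 47 UMIs in the other cells, and the chemokine receptor Cxcr6 had 23 and 35. They were at least 1.37-fold and 5.47-fold lower (Tcf7) and 1.75-fold and 4.07-fold lower (Cxcr6). With the neutrophil-type barcodes among the other cells, the lower side was led by S100a9, Retnlg and S100a8 instead.

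Of the Trdc, Foxp3 and Cd4 classes, the Cd4 class had the fewest genes past the fold. Of 2405 genes, 22 (0.915%) were higher in both libraries than in the other remaining cells and 32 (1.33%) lower, or 0.945% and 3.02% with the neutrophil-type barcodes among the others. Of these 3 classes, the Cd4 class also held the most summed UMIs, 36199 and 79175. The Trdc class held 25532 and 16230, and the Foxp3 class 24121 and 67024. The part of depth in the counts of the 3 classes was not tested. Ms4a4b, a membrane protein of T cells, was 3.20-fold (1.73 to 5.99) and 2.74-fold (1.80 to 4.18) higher, and Tbc1d4, a regulator of glucose transporter traffic, 16.8-fold (3.81 to 154) and 4.55-fold (1.22 to 20.6). Fgl2, a secreted immunoregulatory protein, was lower, with ratios of 0.0602 and 0.216. Scart1 and Il17a were at 0, which follows in part from the split. Cells with none of the 3 genes were mixed. Ccl5 was seen in 5 of 16 and 16 of 40 of them, Il7r in 13 of 16 and 34 of 40, and Ctla4 in 1 of 16 and 15 of 40.

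**Figure D4:**
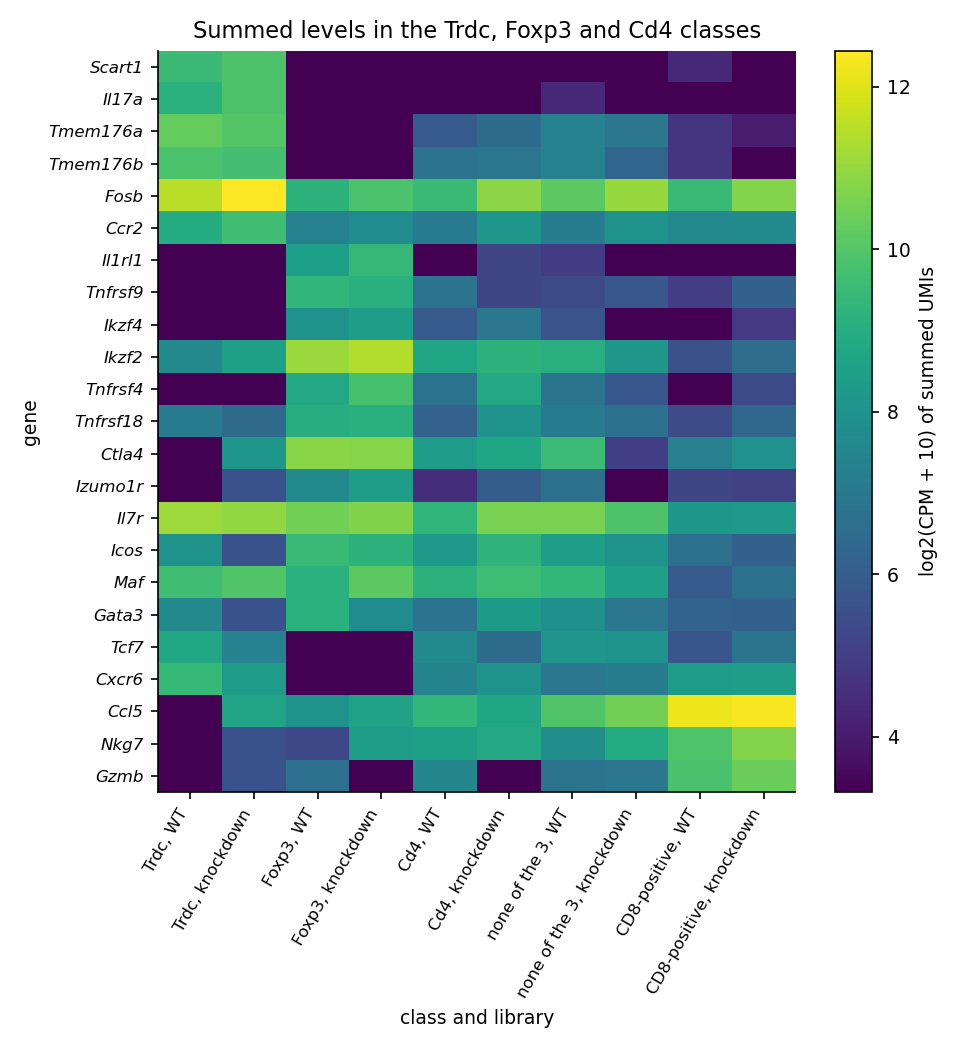
Colour gives log2(CPM + 10) of UMIs summed over the cells of each class (columns, with the WT and the knockdown library side by side) for genes of the Trdc, Foxp3 and Cd4 classes and general T cell genes (rows). Scart1 and Il17a are brightest in the Trdc columns, and Ccl5 and Nkg7 are brightest in CD8-positive T cells.

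Between libraries, 405 of 3688 genes (11.0%) were 1.5-fold or more higher in the knockdown cells on the log2(CPM + 10) scale and 579 (15.7%) lower, so 26.7% lay past the fold in these small samples. Without the neutrophil-type barcodes, 369 of 3487 (10.6%) were higher and 467 (13.4%) lower. At any size, 44.0% of genes were higher in the knockdown cells, or 45.7% without these barcodes. Smyd3 itself had 3 UMIs in 3 knockdown cells and 11 UMIs in 11 WT cells. The knockdown was in the engrafted tumour line, so these host cells give no check of it. Summed counts alone do not tell fewer cells of a class from less RNA per cell, so shares of cells are given beside some of them.

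Genes of the cell cycle were lower in the knockdown cells. Of 12 measured, 11 were lower and 9 past 1.5-fold, against a background of 15.7%, with a median of -2.40 against -0.06 over all genes. Without the neutrophil-type barcodes 10 of 11 were lower and 8 past 1.5-fold, with a median of -2.54. Mki67, the proliferation marker Ki-67, had no UMI in 55 knockdown cells and 84 UMIs in 8 of 88 WT cells (9.09%), and the difference of shares was -9.09 points (-16.9 to -1.21), or -9.76 (-18.1 to -0.579) in the remaining cells. It was at least 15.1-fold lower by the floor of 3 counts. Top2a, topoisomerase 2 alpha, had 3 against 50 UMIs (ratio 0.111, 0.0221 to 0.343), Cenpf, a centromere protein, 0 against 30, and Ccnb2, cyclin B2, 0 against 23.

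Much of that signal lay in a few WT cells. A single Foxp3 cell of 13580 UMIs held 46 of the 84 Mki67 UMIs, 31 of the 50 Top2a UMIs and 259 of the 914 cell cycle UMIs. Without it, 10 of 12 genes were lower and 8 past the fold, the median was -1.60, and the summed ratio moved from 0.449 (0.386 to 0.521) to 0.596 (0.509 to 0.695). Mki67 was then 0 against 38 UMIs and Top2a had a ratio of 0.277 (0.0526 to 0.942). After thinning, Mki67 was seen in 0 of 55 cells in every draw and in 2 to 5 of 86. In CD8-positive T cells the Mki67 ratio was 1.66 (1.06 to 2.65), on 50 against 34 UMIs. Those UMIs lay in 8 of 44 and 5 of 38 cells, and the difference of shares crossed 0 (5.02 points, -11.6 to 20.7). The summed cell cycle ratio there was 0.750, or 0.941 (0.838 to 1.06) without the WT cell of most cell cycle UMIs.

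The type 1 effector list was mixed, with 7 of 10 measured genes higher (3 past 1.5-fold) and 3 lower (2 past it), where 11.0% and 15.7% of all genes were past it, and a median of 0.38. Of the 10, 8 were higher (4 past it) in the remaining cells. The 2 lower ones were Ifng and Stat4. Ifng, interferon gamma, had 1 UMI in 55 knockdown cells and 35 UMIs in 12 of 88 WT cells, at 6.78 against 128 CPM (ratio 0.0528, 0.00130 to 0.314, or 0.0570 in the remaining cells). The difference of shares was -11.8 points (-20.6 to -2.19), and the WT cells lay in the Cd4 class (4 cells) and among those with none of the 3 genes (8 cells). Without the WT cell of most Ifng UMIs the ratio was 0.0704. Thinned, Ifng was seen in 0 to 1 of 55 and 4 to 9 of 86 cells. CD8-positive T cells had a ratio of 0.594 (0.374 to 0.925), with a UMI in 16 of 44 and 20 of 38 cells. That difference of shares crossed 0 (-16.3 points, -35.8 to 5.05). Macrophage barcodes held Ifng in 0 of 3899 and 6 of 3891. Stat4, which relays interleukin 12 signals, had 3 against 22 UMIs (ratio 0.252, 0.0483 to 0.839), against 1.40 (0.702 to 2.82) in CD8-positive T cells.

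Of 7 measured CD4-lineage genes, 5 were lower and 2 past 1.5-fold, with a median of -0.26. Among all genes 15.7% were past it lower, and only 44.0% were higher at any size. The 2 CD4-lineage genes past the fold were Cd40lg and Gata3. Cd40lg, the CD40 ligand of helper T cells, had 2 UMIs in 1 cell against 19 UMIs in 12 cells (ratio 0.195, 0.0220 to 0.807). Without the WT cell of most UMIs it was 0.280 with an interval that reached 1.24. Sh2d1a, the adaptor SAP, chosen by its rank over all genes, had 4 against 29 UMIs (0.255, 0.0652 to 0.726), against 1.40 (0.837 to 2.38) in CD8-positive T cells. Gata3, a transcription factor of helper and regulatory T cells, had a UMI in 21.8% and 39.8% of cells (difference -18.0 points, -31.7 to -2.16), and in 10.9% (7.27 to 14.5) and 18.6% (15.1 to 27.9) after thinning. Without the neutrophil-type barcodes the Gata3 difference was -16.0 points (-31.2 to 1.57).

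Higher in the knockdown cells were genes of the Trdc class. All 8 measured genes of the gamma-delta and type 17 list were higher and 5 past 1.5-fold, against a background of 11.0%, with a median of 0.91, or 1.05 with the same counts in the remaining cells. The list includes Trdc. The Trdc class was 14.5% of the knockdown cells and 9.09% of the WT cells, a difference that crossed 0 (5.45 points, -5.04 to 17.9). Per kept barcode it was 0.0841% and 0.0921%. Il17a had 24 UMIs in 6 cells against 10 in 3 cells (4.44-fold, 2.05 to 10.4), and without the WT cell that held 8 of them 22.0-fold (5.47 to 192). Scart1 had 24 against 12 UMIs (3.70-fold, 1.78 to 8.12). Over Trdc cells alone, Scart1 stood at 940 and 739 CPM. These cells held 25532 of the 147491 knockdown UMIs and 16230 of the 272740 WT UMIs. Within the Trdc class, Il17a or Il17f was seen in 6 of 8 knockdown cells (75.0%, 34.9 to 96.8) and 2 of 8 WT cells (25.0%, 3.19 to 65.1), and Rora, a transcription factor of type 17 cells, had 23 against 3 UMIs. The Trdc cells of the knockdown library were deeper, with median UMIs of 3259.5 against 1984.

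Markers of other cell types were also higher. All 8 measured neutrophil markers were past 1.5-fold higher in the knockdown cells, but in the remaining cells 1 of 3 measured was higher and 2 were lower. The pancreatic digestive genes Ctrb1, Prss2, Try4 and Try5 had 39, 30, 28 and 23 UMIs in the knockdown cells and none in WT. Ctrb1 was seen in 41.8% of these knockdown cells, 52.3% of CD8-positive T cells, 52.2% of macrophage and 43.9% of neutrophil barcodes of the same library, and in 0.0257% of WT macrophage barcodes. Cxcl3, a neutrophil-attracting chemokine, had 147 against 6 UMIs and Arg1, arginase 1, 97 against 28. A single knockdown cell of 7249 UMIs held 140 and 73 of these, and without it the ratios were 2.27 (0.653 to 8.17) and 1.67 (0.925 to 2.98).

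In the remaining cells, Cxcl10, an interferon-induced chemokine, was 2.70-fold higher in the knockdown library (123 against 91 UMIs, 2.04 to 3.58), where 1 cell held 32 UMIs. Ctla2a, a protease inhibitor of T cells, was 2.23-fold higher (1.55 to 3.23). Of 5 measured targets of the sterol regulatory element binding proteins, 4 were lower, 3 of them past 1.5-fold, and Srebf2 was past it higher, with a median of -1.0. Among all genes, 15.7% were past it lower and 11.0% higher, or 13.4% and 10.6% in the remaining cells. Srebf1 had 3 and 4 UMIs. Cd47, the signal read by the SIRP alpha receptor of macrophages, stood at 631 and 473 CPM and was not past the fold. T cell receptor complex genes were lower for 9 of 14 with 1 past the fold, and regulatory genes for 11 of 17 with 3 past it. Among all genes 15.7% were past it lower, and only 44.0% were higher at any size. The counts are therefore not read as a result about these lists.

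**Figure D5:**
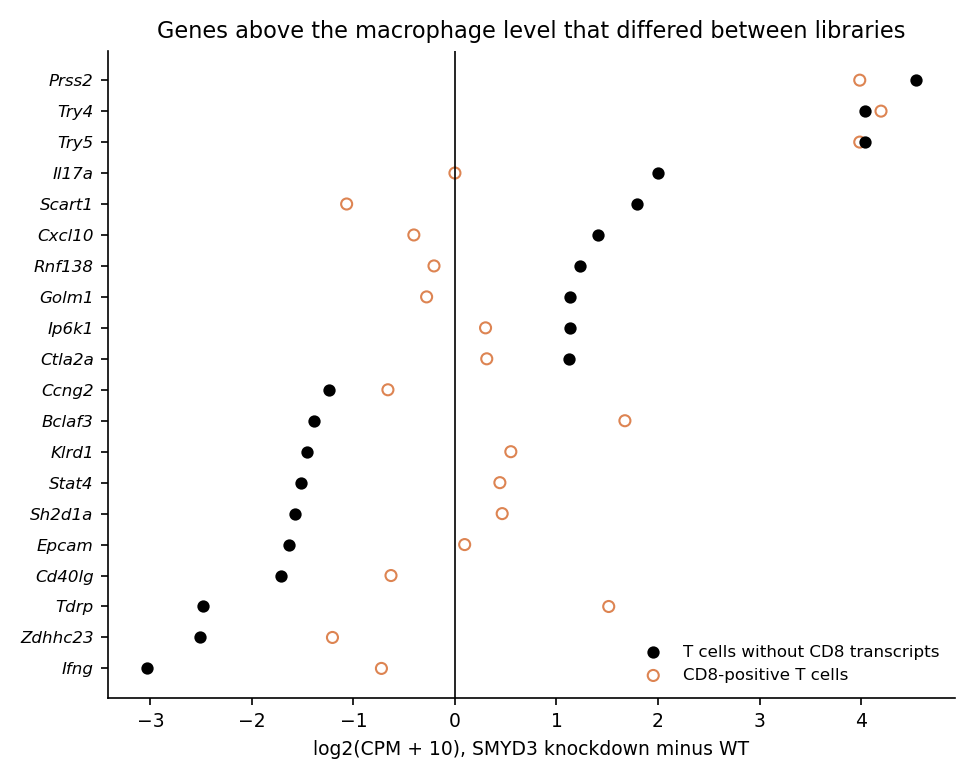
Filled points give the knockdown minus WT difference in log2(CPM + 10) in the remaining cells without CD8 transcripts, and open points the same in CD8-positive T cells, for the 10 lowest and 10 highest genes whose level was at least 2 times that of macrophage barcodes. Ifng, Stat4 and Sh2d1a lie left of 0 in the former, and Il17a and Scart1 right of it.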

How the data were processed

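The 2 libraries were made with the 10x Genomics droplet system from dissociated tumours. The deposited matrix holds UMI counts per gene and barcode, made by the authors with Cell Ranger 7.1.0 on mm10, per the submitters' processing notes. Which annotation release was used is not stated there. A deposited table maps barcodes to the libraries. No sample of the series has a replicate, so no p-value was computed.

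From the counts, barcodes were kept with at least 500 UMIs, 200 genes and at most 20% mitochondrial UMIs. UMIs were summed per class and library with Python 3.11.15, numpy 2.4.6, scipy 1.17.1 and pandas 2.3.3, scaled to CPM and compared as log2(CPM + 10) over genes with at least 20 UMIs in both libraries together, or, between classes, at least 20 UMIs (10 for the Trdc, Foxp3 and Cd4 classes) in each library. A gene with no UMI was bounded at a floor of 3 counts. Macrophage barcodes held Csf1r, more than 10 C1q UMIs and no CD3 UMI. Neutrophil barcodes held Csf3r, at least 20 S100a8 and S100a9 UMIs, no CD3 or Csf1r UMI and at most 10 C1q UMIs. Named genes were the 10 highest and 10 lowest between libraries with an interval off 1, also among those at 2 times the macrophage level, the 15 on each side against CD8-positive T cells and 12 for each class, and up to 4 per list. Others, such as the marker and receptor genes, were named for their role after their values were seen. Mitochondrial, ribosomal, haemoglobin, immunoglobulin, Y-linked, Xist, Tsix and provisionally named genes were left out of the named ones. Trgc1, Trgc2, Trgc4, Trgv6 and Scart1 are the names in the files for genes of the lists with older symbols. The rule for the cells and the 29 gene lists were chosen with earlier results of these data known. The summation was tested on simulated data. Doublets were scored with Scrublet, whose own threshold marked 3 and 2 barcodes and was not used. Leaving out the 723 and 603 highest scores was an alternative, as were other limits, scalings, pseudocounts and depths. Thinning is random and was drawn 20 times, a number chosen after seeing that single draws differed. Leaving out barcodes with neutrophil transcripts, and keeping those with a T cell receptor constant gene, were alternatives chosen after seeing the data. Coordinates are from the GENCODE annotation of mm10.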

Additional observations from a re-analysis of the deposited data

Results flagged for a closer look

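For 5 genes the knockdown over WT ratio lay on opposite sides of 1 in the cells without CD8 transcripts and in CD8-positive T cells, with counting intervals that both excluded 1. The difference was not tested, since each label has 1 library. The intervals count UMIs, and 1 cell can hold many of them. For Mki67, the share of CD8-positive cells with a UMI differed by 5.02 points, with an interval that crossed 0 (-11.6 to 20.7). Mki67 was at most 0.0660 in the cells chosen by the rule and 0.0713 in those without neutrophil transcripts, both by the floor of 3 counts, against 1.66 in CD8-positive T cells. Slc7a11, the cystine transporter, was 18.5 (20 against 2 UMIs, 10 of them in 1 cell) against 0 and 12 UMIs in the CD8-positive cells of the 2 libraries. In the cells without neutrophil transcripts, Ptgs2, cyclooxygenase 2, was at least 13.3 (20 against 0 UMIs, 14 of them in 1 cell) against 0.113. Cxcl2, a neutrophil-attracting chemokine, was 7.01, or 3.80 without the cell that held 77 of its 158 UMIs, against 0.270. The 10, 14 and 77 UMIs of these 3 genes lay in the same knockdown cell of 7249 UMIs, which also held most Cxcl3 and Arg1 UMIs. Without it Slc7a11 was 9.72 (2.07 to 91.3), on 10 against 2 UMIs, and Ptgs2 had 6 against 0 UMIs. Bclaf3 was 0.319 against 4.53, the former on 4 against 25 UMIs. Without the WT cell that held 4 of these UMIs it was 0.360, with an interval that reached 1.07 (from 0.0899).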

How the results depend on the processing

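No paired analysis was possible because each label has 1 library. As reported, the share of gated T cells without CD8 transcripts was 55.6% and 69.8% (difference -14.3 points), 405 genes were higher and 579 lower in the knockdown cells, and 75 were higher and 37 lower than in CD8-positive T cells. Requiring 1 CD3 UMI gave shares of 74.0% and 77.9% (difference -3.94, with an interval of -13.0 to 5.13 that crossed 0), turned the Cd4 share difference from 9.55 to -2.71 points, and gave 1469 genes lower in the knockdown and 256 higher and 90 lower than in CD8-positive cells. The interval of the Foxp3 share difference left out 0 with 1 CD3 UMI (-9.38, -16.8 to -2.17) and in a single draw of thinning (-10.5, -20.2 to -0.0523), and crossed it as reported. The former setting took in 70 and 46 more barcodes, 48 and 17 of them with neutrophil transcripts. The latter rests on few cells: over the 20 draws with the cells held fixed, Foxp3 was seen in 1 to 4 of 55 knockdown cells and 5 to 13 of 86 WT cells. Requiring 3 gave 36 higher than in CD8-positive cells. As shares of all kept barcodes the values were 0.579% and 1.01% (difference -0.435). A single draw of thinning gave 157 and 172 genes between libraries and 13 and 8 against CD8-positive cells. A pseudocount of 50 CPM gave 232, 287, 45 and 23 in that order, no minimum of UMIs 2412, 2645, 289 and 149, and a minimum of 50 UMIs 131, 148, 26 and 15. Without neutrophil transcripts, and with a T cell receptor constant gene required, both chosen after seeing the data, 40 genes were higher than in CD8-positive cells.

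Of 714 list medians, 62 lost their sign, with small shifts not counted. For genes, a change of sign was counted only where the value was past the fold as reported. Of 1451 values for genes between libraries, 48 crossed the fold and 11 changed sign. Of 3308 between classes, 216 crossed the fold and 6 changed sign. On the log2 scale, Asprv1 (-0.26) and Mmp8 (-0.50) did so with 3 CD3 UMIs required, and Asprv1 (-0.24), Mmp8 (-0.48), Il1r2 (-0.087) and, in the Cd4 class, S100a8 (0.19) and S100a9 (0.99) with a receptor constant gene required. In the single draw of thinning these were H2ac24 (0.43), Klrd1 (0.21), and in the Cd4 class Copg1 (-2.57). Without neutrophil transcripts as well they were Klrd1 (0.36), Ctla2a (-0.72), Ptgs2 (-1.27), Stat4 (0.042), in the Foxp3 class Tnfrsf9 (-0.021), and in the Cd4 class Copg1 (-2.58) and Nab1 (-2.86). The single draw applied the rule again to the thinned counts, so its cells differed as well. The cause was not tested. Over 20 draws with the cells held fixed, 29 of 35 and 30 of 36 genes named between libraries kept their direction in every draw. Klrd1, H2ac24, Ctla2a, Ptgs2 and Stat4 were among those that kept it. Il17a, Scart1, Ube2c, Ccng2 and Sh2d1a were reversed in 1 draw each, and Ccnb2, Cenpf and Nusap1 had no difference in 1, 2 and 1 draws. Shallow cells and 1 library per label limit these results: an absent UMI is not an absent transcript, and no difference between the libraries can be told apart from one between animals or preparations.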

Other observations

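Interleukin 10, a cytokine of regulatory T cells, had 2 UMIs in 1 of 6 knockdown Foxp3 cells and 10 UMIs in 5 of 18 WT Foxp3 cells (Il10), and 1 UMI in all other cells without CD8 transcripts. Areg, the growth factor amphiregulin, had 25 UMIs in 2 knockdown cells and 13 UMIs in 4 WT cells, and 19 of the knockdown UMIs lay in a single Cd4 cell. Pdcd1, which encodes PD-1, had 36 and 59 UMIs in 13 and 20 cells without CD8 transcripts, whereas CD8-positive T cells had 54 UMIs in 19 knockdown cells and 3 UMIs in 3 WT cells. Cd69, an early activation marker, stood at 2079 and 980 CPM in the cells without neutrophil transcripts. Ccr7, a chemokine receptor of naive T cells, was rare there, seen in 3 and 6 cells.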
